A study of Mus musculus with 34 samples.

Results

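Fast-fibre sarcomere genes encode the contractile and calcium-handling proteins typical of fast-twitch muscle fibres. They are described here by 10 genes: the myosin heavy chains Myh1 and Myh4, the myosin light chains Myl1 and Mylpf, the troponins Tnni2 and Tnnt3, the tropomyosins Tpm1 and Tpm2, the calcium buffer Pvalb, and the Z-disc protein Myoz1. The members are the genes of this list with probes of a single annotated gene symbol in both value tables. All 10 were measured, out of 637 genes named in both tables, by 20 probes in each table. Pvalb had 6 probes, Tnnt3 3, Tpm1, Tpm2 and Myoz1 2 each, and the other members 1 each.

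RNA of mouse diaphragm, the main breathing muscle, and of hindlimb muscle was compared on 34 2-colour arrays. The mice were mdx, which carry a mutation of the dystrophin gene and lose muscle fibres in cycles of damage and repair, or BL10, the strain with intact dystrophin. The arrays form 8 groups: BL10 diaphragm, mdx diaphragm, BL10 hindlimb and mdx hindlimb, each either untreated (18 arrays) or from mice given L-arginine (16 arrays), the amino acid from which nitric oxide is made. Each group has 1 array at 3, 5, 9 and 12 weeks of age, and the untreated mdx groups have a Sample 1 and a Sample 2 at 12 weeks. By its channel labels, each array sets RNA of the named age (channel 2) against 12-week RNA of its own strain (channel 1), so the reference differs between strains; 1 treated array whose channel labels go against its title is named below. The labels used here give neither the dose, the hindlimb muscle taken, the number of animals, nor whether the 12-week reference RNA of treated arrays came from treated mice. The spread behind each p-value is thus that of arrays and may be technical.

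Each value is therefore a ratio to 12-week RNA, given as log2, so that 0 is equality and 1 a doubling. It is not a level of expression, so whether the samples carry muscle markers and lack those of other tissues could not be read from it. The direction, named age over 12 weeks, is likely from the order of the channels but is not stated; turned round, every sign below flips. Strains are compared by ratios that each have their own strain's reference RNA. The tissue of the reference RNA is not given here, so tissues too are compared by ratios and not by level. In whole muscle, fewer fibres of a type and less RNA per fibre cannot be told apart.

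In a fast fibre, myosin heavy chains with their light chains form the motor of the thick filament, and calcium bound to troponin moves tropomyosin on the thin filament to let the motor pull. Fast fibres hold their own forms of most of these proteins, and parvalbumin takes up calcium so that they relax quickly. Limb muscles of the mouse are mostly fast, the diaphragm works continuously, and fast fibres mature after birth, while in mdx mice fibres are rebuilt throughout life.

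Promoter sequence is shown for Mylpf and Pvalb, which the results turn on, and for Myh1 and Myh4, whose genes lie side by side. Each is the 250 bases before a RefSeq start (GRCm38.p6), 5′ to 3′ on the gene's strand. Capitals mark the letters of an E-box (CANNTG, bound by MyoD-type factors), of the TATA box (TATAAA) or of a MEF2 site, searched on both strands.
Mylpf, chr7:127211358-127211607, plus strand: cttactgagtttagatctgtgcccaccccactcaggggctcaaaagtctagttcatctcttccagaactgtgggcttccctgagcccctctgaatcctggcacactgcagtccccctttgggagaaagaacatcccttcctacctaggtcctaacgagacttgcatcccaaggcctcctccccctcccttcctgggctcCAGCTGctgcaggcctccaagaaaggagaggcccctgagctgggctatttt
Pvalb, chr15:78206401-78206650, minus strand: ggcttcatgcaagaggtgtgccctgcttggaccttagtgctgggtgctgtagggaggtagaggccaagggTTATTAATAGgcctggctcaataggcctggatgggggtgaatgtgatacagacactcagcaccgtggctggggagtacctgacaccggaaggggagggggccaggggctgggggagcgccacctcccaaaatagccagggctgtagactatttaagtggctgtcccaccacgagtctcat
Pvalb, second start, chr15:78204238-78204487, minus strand: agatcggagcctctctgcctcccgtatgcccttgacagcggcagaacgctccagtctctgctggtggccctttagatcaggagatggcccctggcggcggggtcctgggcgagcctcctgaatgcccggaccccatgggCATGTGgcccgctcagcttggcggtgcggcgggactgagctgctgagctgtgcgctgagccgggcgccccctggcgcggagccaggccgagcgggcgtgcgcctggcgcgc
Myh1, chr11:67199852-67200101, plus strand: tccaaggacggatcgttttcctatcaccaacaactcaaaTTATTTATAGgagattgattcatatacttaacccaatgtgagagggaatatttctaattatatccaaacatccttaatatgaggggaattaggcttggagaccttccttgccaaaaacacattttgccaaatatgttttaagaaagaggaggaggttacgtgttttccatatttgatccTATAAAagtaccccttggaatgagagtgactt
Myh4, chr11:67237562-67237811, plus strand: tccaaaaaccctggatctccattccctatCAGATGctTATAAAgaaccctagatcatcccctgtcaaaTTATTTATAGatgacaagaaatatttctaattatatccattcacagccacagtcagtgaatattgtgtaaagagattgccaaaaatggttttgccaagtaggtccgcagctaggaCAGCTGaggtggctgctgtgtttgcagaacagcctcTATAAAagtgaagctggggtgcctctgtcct

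The table of promoters held 8 windows of 7 members. An E-box was found in 6 of the 8, against 66.2% of all 32851 promoters searched. The TATA letters were found in 3 of 8, those of Myl1, Myh1 and Myh4, against 12.4%. A MEF2 site was found in 3 of 8, those of Myh1, Myh4 and the outer start of Pvalb, against 2.92%. In Myh1 and in Myh4, 1 match of the TATA letters overlaps the MEF2 site. The Mylpf window held 1 E-box and neither of the other motifs. A match is a description of these letters and not a binding site.

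Some arrays differed from the rest. Values of 0 or below, which have no log2, numbered 225, 128 and 168 on the untreated BL10 hindlimb arrays of 3 and 12 weeks and the untreated BL10 diaphragm array of 3 weeks, against 0 to 53 on the other arrays. These 3 arrays stand apart, and fitted differences of untreated arrays singled out below are given without them too. Both channels of the treated BL10 hindlimb array of 9 weeks are labelled mdx; its title says BL10, which placed it. At 12 weeks both channels carry 12-week labels; on treated arrays the samples may still differ by the treatment, which the labels do not settle for the reference. The standard deviation of a member over the 12-week arrays had a median of 0.45 in the untreated table (n = 6; from 0.21 for Pvalb to 1.42 for Myh4) and 0.19 in the L-arginine table (n = 4; from 0.08 for Myh1 to 0.46 for Mylpf). Without the untreated BL10 hindlimb array, which stands apart, the untreated median was 0.40 (n = 5) and the highest 0.58, for Myl1. The 12-week arrays are of both tissues and strains, so this spread also holds any difference between the groups.

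**Figure D1:**
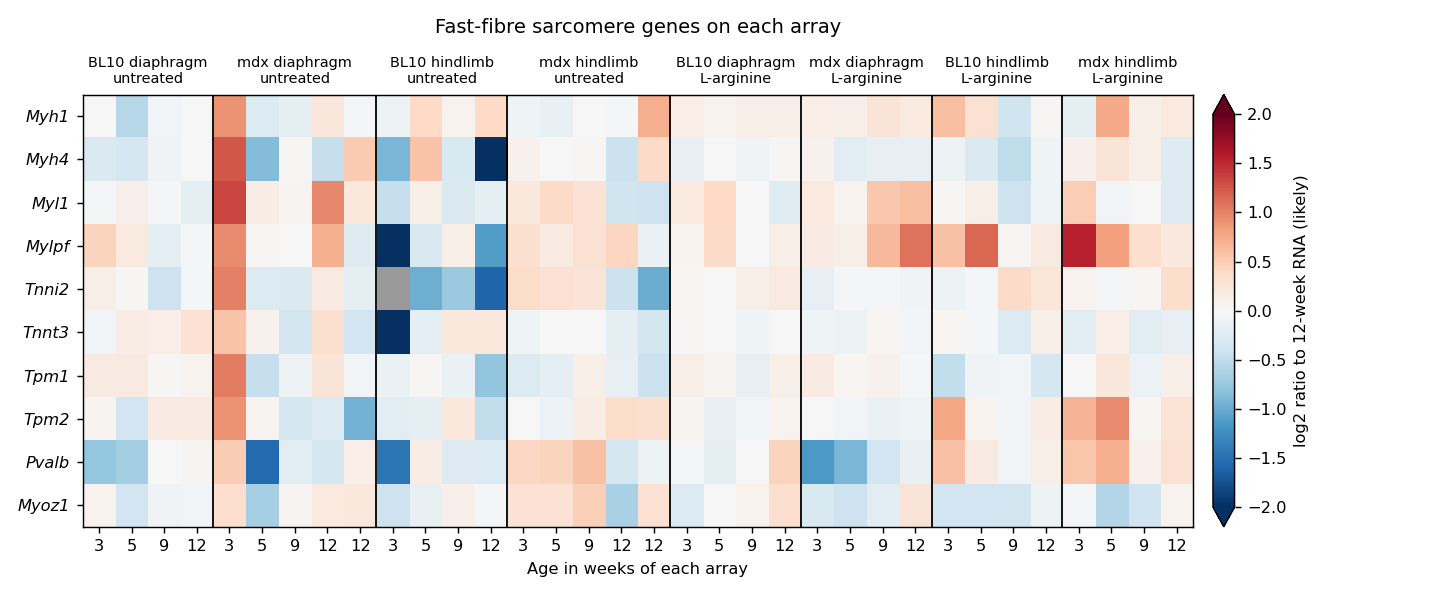
Log2 ratio of each of the 10 genes (rows) on each of the 34 arrays (columns, by group and age in weeks); red is above and blue below the 12-week RNA, colours end at 2 and -2, and grey has no value. The untreated mdx diaphragm array of 3 weeks is above 0 for all 10 genes, and the lowest values lie on untreated BL10 hindlimb arrays.

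Averaged over the members, the group means of the log2 ratio lay close together, apart from untreated BL10 hindlimb, whose low mean rests on 2 arrays that stand apart. The mean there was -1.24 at 3 weeks (9 members with a value), -0.05 at 5, -0.10 at 9 and -0.72 at 12 weeks, a group mean of -0.53 ± 0.57 (SD, n = 4). Without the arrays of 3 and 12 weeks it was -0.08 ± 0.03 (SD, n = 2), beside -0.07 ± 0.10 (SD, n = 3) in untreated BL10 diaphragm without its 3-week array. The other group means ran from -0.06 ± 0.08 (SD, n = 4) in untreated BL10 diaphragm to 0.18 ± 0.16 (SD, n = 4) in treated mdx hindlimb, and neighbours in that order differed by less than their spread. Single arrays stood out more. On the untreated mdx diaphragm array of 3 weeks the members' mean was 0.88 and 10 of 10 were above 0, from 0.34 (Myoz1) to 1.34 (Myl1), where 54.2% of all named genes were above 0. The median member there was higher than 86.6% of the named genes. The probes of this array were widely spread, with 55.1% of them within 0.5 of 0. On the 3 arrays that stand apart this share was 51.8% to 57.1%. The mdx array held 53 values of 0 or below and was kept in the fits without those 3. On the 5-week array of the same group the members' mean was -0.38 and 4 of 10 were above 0.

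Of the 24 comparisons fitted, 23 had 0 of the 10 members past an adjusted p of 0.05 (limma, Benjamini-Hochberg over all features of the fit), and 1 had 2. Over all 240 tests of members, 17 had an unadjusted p under 0.05, or 7.08%, against 9.16% of the 22017 tests of all features. Most comparisons had few or no calls at all: 8 of the 24 called any feature.

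The motor proteins of the thick filament scattered widely. Myh4, the myosin heavy chain of the fastest fibres, had log2 ratios of 1.24, -0.86 and 0.03 at 3, 5 and 9 weeks in untreated mdx diaphragm, and -0.45 and 0.52 on the 12-week arrays. In untreated BL10 hindlimb it had -0.92, 0.57, -0.30 and -3.32 at 3, 5, 9 and 12 weeks, the last a deposited ratio of 0.1 on an array labelled as 12 weeks in both channels. The low value and the high one both lie in the untreated table, whose groups overlap. In the L-arginine table Myh4 ran from -0.51 to 0.26. Myh1, the myosin heavy chain of another fast fibre type, ran from -0.58 to 0.90 untreated and from -0.40 to 0.77 treated, and all 8 treated diaphragm values lay between 0.07 and 0.25. Neither gene passed any test.

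The light chains bind the neck of the myosin head. Myl1, the essential light chain of fast fibres, had values of 1.34, 0.15 and 0.06 at 3, 5 and 9 weeks in untreated mdx diaphragm and 0.96 and 0.21 at 12 weeks. In untreated BL10 diaphragm it had -0.03, 0.10, -0.04 and -0.20 at 3, 5, 9 and 12 weeks. All 5 mdx values are above 0, but 1 of them, at 9 weeks, lies within the BL10 range. The fitted difference was 0.62 ± 0.28 (SE), with an adjusted p of 0.477; without the 3 arrays that stand apart it was 0.50, with an adjusted p of 0.773.

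Mylpf, the phosphorylatable regulatory light chain of fast fibres, had the widest range of any member. In untreated BL10 hindlimb its log2 ratio was -4.32 at 3 weeks, -0.30 at 5, 0.12 at 9 and -1.12 at 12 weeks. The first of these is a deposited ratio of 0.05, on the array with 225 values of 0 or below. In untreated mdx hindlimb it was 0.32, 0.18 and 0.30 at 3, 5 and 9 weeks, and 0.42 and -0.14 on Sample 1 and Sample 2. With L-arginine, Mylpf was 0.58, 1.14, 0.03 and 0.18 at 3, 5, 9 and 12 weeks in BL10 hindlimb. In treated mdx hindlimb it was 1.56, 0.82, 0.33 and 0.21. All 16 treated values, diaphragm included, were above 0, the lowest at 0.01, and 11 of the 18 untreated ones were. Of all named genes 40.1% to 71.5% were above 0 on a treated array, and 32.9% to 61.2% on an untreated one. These are shares on single arrays. How many other genes were above 0 on all 16 treated arrays was not counted. Treated Mylpf was higher than 47.5% of the named genes on the mdx hindlimb array of 12 weeks, and than 98.9% on the mdx diaphragm array of 12 weeks. Its other treated arrays lay between these.

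The troponins carry the calcium switch. Tnni2, the inhibitory subunit of fast troponin, had -0.97, -0.74 and -1.60 at 5, 9 and 12 weeks in untreated BL10 hindlimb and no value at 3 weeks, where the deposited ratio was not above 0. In treated BL10 hindlimb it had -0.10, -0.04, 0.38 and 0.24 at 3, 5, 9 and 12 weeks. The 3 untreated values lie below all 4 treated ones, but how many other genes do so was not counted. The untreated value at 12 weeks is from an array that stands apart. The treated 0.38 is from the array with mdx in both channel labels. In untreated mdx hindlimb it had 0.37, 0.31 and 0.25 at 3, 5 and 9 weeks, but -0.43 and -1 on the 12-week arrays, so that untreated values of the strains overlap. In the diaphragm Tnni2 ran from -0.42 to 0.11 in untreated BL10 mice, and from -0.29 to 1.01 in untreated mdx mice. Tnnt3, the subunit that ties fast troponin to tropomyosin, lay between -0.38 and 0.57 on every array but 1, the untreated BL10 hindlimb array of 3 weeks, where it was -3.15. There its 3 probes disagreed, with 0.84, -3.64 and -6.64.

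**Figure D2:**
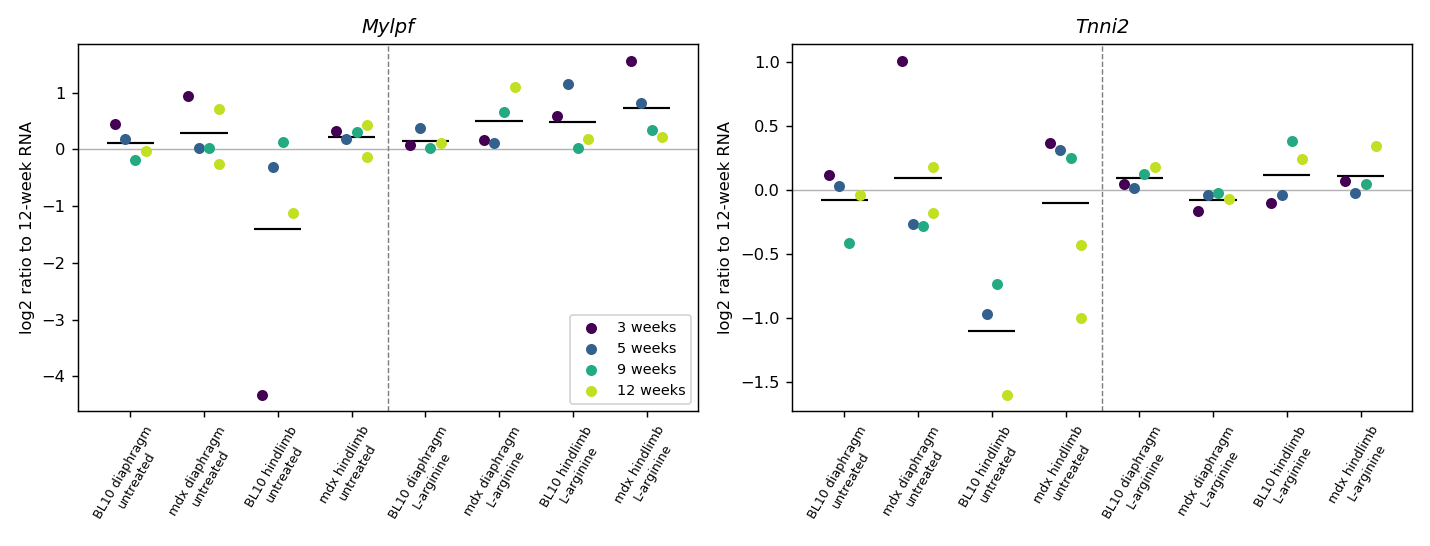
Log2 ratio of Mylpf and of Tnni2 on each array (points, coloured by age) in the 8 groups, with the group mean as a line; the dashed line parts the untreated table from the L-arginine table. Untreated BL10 hindlimb lies lowest for both genes, with Mylpf at -4.32 on its 3-week array and Tnni2 between -1.60 and -0.74.

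Tropomyosins lie along the thin filament and are moved by troponin. Tpm1 ran from -0.79 to 1.02 untreated and from -0.50 to 0.22 treated. Tpm2, a tropomyosin of fast and slow fibres alike, was 0.67, 0.95, 0.04 and 0.27 at 3, 5, 9 and 12 weeks in treated mdx hindlimb. In treated mdx diaphragm it was -0.01, -0.06, -0.14 and -0.08 at those ages. The groups lie on either side of 0, but their nearest values, -0.01 and 0.04, lie closer together than the SD of Tpm2 over treated 12-week arrays, 0.15. That SD is over both tissues and strains, so it also holds any difference between them at 12 weeks. A split of these groups about 0 was had by 2 of 10 members and by 2.23% of 628 genes. Averaged over strains, the log2 ratio of Tpm2 was lower by 0.41 ± 0.13 (SE) in treated diaphragm than in treated hindlimb. Its adjusted p of 0.101 missed the threshold.

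Pvalb, the calcium buffer parvalbumin, had its low values mostly on arrays of 3 and 5 weeks, though other arrays of those ages were high. In untreated mdx diaphragm the mean of its 6 probes was 0.51 at 3 weeks, -1.55 at 5, -0.21 at 9, and -0.35 and 0.13 at 12 weeks. At 5 weeks all 6 probes were low, from -1.69 to -1.18, and Pvalb had the lowest ratio of the 636 named genes with a value on that array. At 3 weeks 5 of the probes lay between 0.43 and 0.72 and the other at -0.03. In untreated BL10 diaphragm Pvalb was -0.78, -0.68, -0.01 and 0.05 at 3, 5, 9 and 12 weeks; its rank from the lowest was 3 of 637 genes at 5 weeks, and 143 of 557 at 3 weeks. The 3-week values of the strains lie apart, but each is 1 array, and the BL10 array, with 168 values of 0 or below, stands apart. The 5-week values are both low.

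With L-arginine, Pvalb in mdx diaphragm was -1.14 at 3 weeks, -0.91 at 5, -0.39 at 9 and -0.14 at 12 weeks. All 6 probes were below 0 at 3, 5 and 9 weeks, and the rank of Pvalb from the lowest was 6 of 624 genes at 3 weeks and 16 of 633 at 5 weeks. Treated BL10 diaphragm had -0.05, -0.20, 0.01 and 0.45 at 3, 5, 9 and 12 weeks. The treated strains overlap in the diaphragm: the mdx value at 12 weeks lies above the BL10 value at 5 weeks. In hindlimb, Pvalb was 0.42, 0.45 and 0.59 at 3, 5 and 9 weeks in untreated mdx mice and -0.35 and -0.09 at 12 weeks. It was 0.55, 0.73, 0.09 and 0.30 at 3, 5, 9 and 12 weeks in treated mdx mice. Treated BL10 hindlimb had 0.58, 0.18, -0.06 and 0.12 at those ages. Untreated BL10 hindlimb had -1.47, 0.15, -0.25 and -0.27 at those ages. The first of these rests on 1 probe at -6.64, a deposited ratio of 0.01, while the other 5 lay between -0.69 and -0.01.

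**Figure D3:**
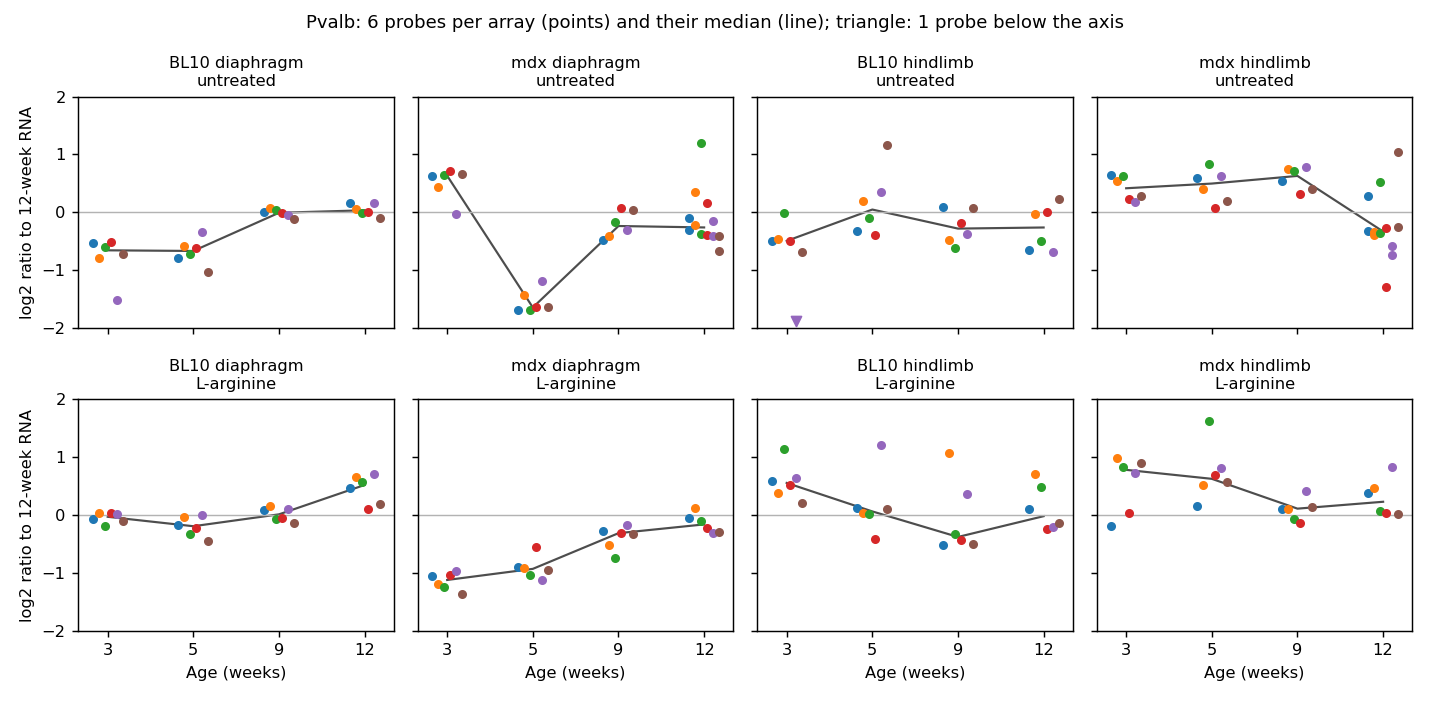
Log2 ratio of each of the 6 Pvalb probes (points) against age in weeks, 1 panel per group, with the median over probes and arrays of an age as a line; the triangle is 1 probe at -6.64. Untreated mdx diaphragm lies high at 3 weeks and lowest at 5 weeks, and treated mdx diaphragm is lowest at 3 weeks.

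The Pvalb probes are listed under 1 sequence entry, so they repeat the measurement on the same RNA and are not replicates of a condition. Their range on an array had a median of 0.70 untreated and 0.58 treated, and all 6 had one sign on 9 of 18 and 7 of 16 arrays. No test of Pvalb passed. In the L-arginine table its tissue difference, diaphragm minus hindlimb, was -0.61 ± 0.18 (SE), with an adjusted p of 0.0741. The strain difference in treated diaphragm was -0.70 ± 0.25 (SE), with an adjusted p of 0.998. The difference between the strain differences of hindlimb and diaphragm was 0.91 ± 0.35 (SE), with an adjusted p of 0.713. The course of ages by tissue had an adjusted p of 0.26 with L-arginine and 0.889 untreated, and that by strain 0.996 and 0.84.

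Myoz1, a calcineurin-binding protein of the Z-disc in fast fibres, was below 0 on most younger treated arrays. In treated BL10 hindlimb it was -0.38, -0.39, -0.37 and -0.10 at 3, 5, 9 and 12 weeks. The 4 treated 12-week arrays ran from -0.10 to 0.34. The fitted differences from 12 weeks were -0.39 ± 0.15, -0.48 ± 0.15 and -0.36 ± 0.15 (SE) at 3, 5 and 9 weeks, with adjusted p of 0.808, 0.471 and 0.995.

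The strain comparison asked whether the ratios to 12-week RNA differed between mdx and BL10 muscle. Each strain has its own reference, so a strain difference equal at the named age and at 12 weeks would cancel. Whether dystrophic muscle departs from BL10 muscle in level cannot be read from it. In untreated diaphragm 0 of 10 members passed and 1 (Myl1) had an unadjusted p under 0.05, where 0% and 9.86% of 1014 features did; the members' median difference, mdx minus BL10, was 0.16 and that of all features 0.16. In untreated hindlimb 0 of 10 passed and 2 had an unadjusted p under 0.05 (background 0.0986% and 11.8%), and the medians were 0.46 and 0.15. These were Mylpf (1.63 ± 0.63 SE, adjusted p 0.39) and Tnni2 (0.92 ± 0.31 SE, adjusted p 0.39). Without the 3 arrays that stand apart they were at 0.19 and 0.70, both with an adjusted p of 0.998, and the medians of the members and of all features were 0.03 and -0.02. With L-arginine, 0 of 10 passed in diaphragm, with 1 (Pvalb) under 0.05 unadjusted (background 0% and 2.65% of 1019 features). In treated hindlimb 0 of 10 passed and 0 had an unadjusted p under 0.05, where 0.393% and 17.6% of features did. The strain by tissue terms had 0 of 10 members past the test in both tables, with 0 under 0.05 unadjusted in the untreated table (background 0% and 4.44%) and 1 in the L-arginine table (0% and 6.48%).

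The tissue comparison is likewise one of ratios to reference RNA, whose tissue is not given here. If each tissue has its own reference, a tissue difference equal at the named age and in the reference would cancel. Whether diaphragm and hindlimb differ in level cannot be read from it. Between the tissues, averaged over strains, 0 of 10 members passed in the untreated table (background 0%). Of the members 1 had an unadjusted p under 0.05, where 10.3% of features did. This was Tnni2, whose log2 ratio was higher in diaphragm by 0.53 ± 0.21 (SE), with an adjusted p of 0.475. Tnni2 was at 0.49 (adjusted p 0.735) without the 3 arrays that stand apart. With L-arginine, 0 of 10 passed, where 41 of 1019 features, 4.02%, did. There Pvalb and Tpm2 were the 2 members under 0.05 unadjusted, where 24.2% of features were. The members' median was -0.01, that of all features -0.13.

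The age comparison asked how the ratios moved towards 12 weeks. Against 12 weeks in the untreated table, 0 of 10 members passed at 3, 5 or 9 weeks (background 0% at each), and 1, 0 and 0 had an unadjusted p under 0.05, where 8.09%, 2.86% and 2.56% of features did. The 1 was Tnni2 at 3 weeks, 0.87 ± 0.31 (SE) with an adjusted p of 0.487, and 0.98 (adjusted p 0.302) without the 3 arrays that stand apart. With L-arginine, 0 of 10 passed at each age (background 0%), and Myoz1 alone was under 0.05 unadjusted at each (background 5.3%, 9.32% and 2.65%). The terms of age by strain had 0 of 10 members past the test, untreated (background 0.302%) and treated (0%), and 0 under 0.05 unadjusted (6.75% and 0.689%). Those of age by tissue also had 0 of 10 (0% in both tables), with 0 untreated and 1 treated, Pvalb, under 0.05 unadjusted (4.99% and 14.7%). Leaving out the untreated BL10 diaphragm array of 3 weeks moved the count for age by strain. Leaving out the untreated mdx hindlimb array of 3 weeks moved that for age by tissue. In either fit 1 array, untreated BL10 hindlimb of 3 weeks, then stood for BL10 or for hindlimb at that age. No count is read from these fits.

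The comparison of L-arginine with untreated muscle is the study's question, but treatment and table cannot be told apart. In BL10 hindlimb 2 of 10 members, both higher in the L-arginine table, passed the test, where 27 of 632 genes, 4.27%, did. Mylpf was higher by 1.89 ± 0.55 (SE; 3.70-fold, adjusted p 0.0444) and Tnni2 by 1.17 ± 0.29 (SE; 2.24-fold, adjusted p 0.0193). The group means were 0.48 ± 0.50 (SD, n = 4) treated and -1.41 ± 2.01 (SD, n = 4) untreated for Mylpf, and 0.12 ± 0.23 (SD, n = 4) and -1.10 ± 0.45 (SD, n = 3) for Tnni2. The treated and untreated Mylpf values overlap, those of Tnni2 do not. The same 2 members were those under 0.05 unadjusted, where 19.9% of genes were. The members' median difference was 0.54 and that of all genes 0.24. With quantile normalisation these were 0.02 and -0.01, and without the 3 arrays that stand apart -0.06 and 0.11.

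Both calls were lost without certain arrays. Without the 3 arrays that stand apart, 0 of 10 members passed in BL10 hindlimb: Mylpf was at 0.51 (adjusted p 0.742) and Tnni2 at 0.95 (adjusted p 0.331). The share of all genes called in that fit is not given here. Loss of the call was not particular to the members, since Tpm3, Myom1 and Fmod, named below, lost theirs too. Without the untreated BL10 hindlimb array of 3 weeks alone, Mylpf was at 0.84, with an adjusted p of 0.194. Without that of 12 weeks, Tnni2 was at 0.95 (adjusted p 0.115), and without the treated BL10 hindlimb array of 12 weeks at 1.06 (adjusted p 0.0673). Leaving out any 1 of the 34 arrays ended the call of Mylpf in 23 cases and that of Tnni2 in 2. Scaling the arrays to equal spread also ended both, with Mylpf at 1.16 (adjusted p 0.15) and Tnni2 at 0.91 (adjusted p 0.078).

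**Figure D4:**
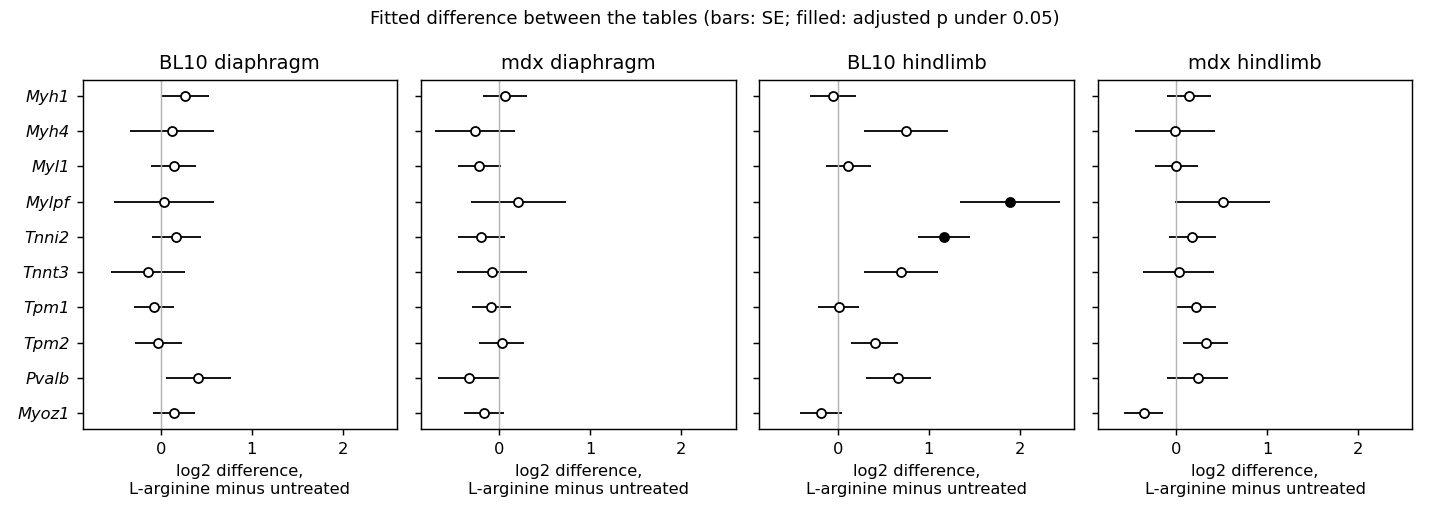
Fitted log2 difference, L-arginine minus untreated, of each member in the 4 tissue and strain pairs, with its standard error as a bar; filled points passed the test. Mylpf (1.89) and Tnni2 (1.17) in BL10 hindlimb are filled, and every point of the diaphragm panels lies within 0.5 of 0.

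In the other pairs 0 of 10 members passed. The members' range was -0.14 to 0.41 in BL10 diaphragm (background 0% adjusted and 7.75% unadjusted), -0.33 to 0.21 in mdx diaphragm (0.633% and 12%), and -0.36 to 0.51 in mdx hindlimb (3.01% and 18.7%), with 0 members under 0.05 unadjusted in each. A difference shared by all arrays of a table cancels when the table differences of 2 groups are compared. By tissue, diaphragm minus hindlimb, 0 of 10 passed (background 1.11%), and 1 was under 0.05 unadjusted (18.5%): Tnni2, at -0.69 ± 0.27 (SE), with an adjusted p of 0.169. By strain, mdx minus BL10, 0 of 10 passed (0%), and again 1, Tnni2 at -0.68 ± 0.27 (SE) with an adjusted p of 0.508, was under 0.05 unadjusted (9.18%). Without the 3 arrays that stand apart Tnni2 was at -0.57 by tissue (adjusted p 0.311) and at -0.57 by strain (adjusted p 0.764).

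Other muscle genes in the BL10 hindlimb pair lay on both sides of 0. Of the list of other fast-fibre genes, 7 of 12 were measured and 0 passed there: 3 were above 0, with a median of -0.10, from the muscle creatine kinase Ckm at -0.26 to the glycogen phosphorylase Pygm at 1.05. Of the slow-fibre list, 2 of 8 were measured, and Tpm3, the tropomyosin of slow fibres, was higher by 1.16 ± 0.28 (SE, adjusted p 0.0159) while the slow troponin Tnni1 was at 0.13. Of the sarcomere genes of both fibre types, 5 of 10 were measured and 1 passed, the M-band protein Myom1 (1.19 ± 0.31 SE, adjusted p 0.027), with 3 above 0 and a median of 0.80. Neither passed without the 3 arrays that stand apart, with Tpm3 at 0.60 (adjusted p 0.501) and Myom1 at 0.90 (adjusted p 0.387). Only Tnnt2 of the 4 developmental genes was measured, at -0.55.

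Of the markers of other cell types, 1 passed the test in the same pair. Of the fibroblast and matrix list 4 of 9 were measured, all above 0 with a median of 1.02, and the proteoglycan Fmod passed (1.77 ± 0.30 SE, adjusted p 0.000981), but not without the 3 arrays that stand apart (1.31, adjusted p 0.0910). The 3 measured macrophage genes had a median of -0.53, with 1 above 0 and 0 past the test. The endothelial Pecam1 was at 1.41 with an adjusted p of 0.0849. The 3 liver genes ran from -0.57 to 0.82 and the 2 adipocyte genes from -0.08 to 0.23, none past the test, and no gene of the blood list was measured. The part of these markers in the values of Mylpf and Tnni2 was not tested.

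Calls on these lists elsewhere were few, with 0 members called beside them. In mdx hindlimb the slow Tnni1 (1.17 ± 0.29 SE, adjusted p 0.0281) and the matrix genes Fmod (1.48 ± 0.29 SE, adjusted p 0.0131) and Col1a2 (1.28 ± 0.29 SE, adjusted p 0.0176) were higher in the L-arginine table. In treated hindlimb the macrophage lysozyme Lyz2 was 1.97 ± 0.28 (SE, adjusted p 0.00696) higher in mdx than in BL10 mice. In the L-arginine table the log2 ratio of the glycolytic Pfkm was higher in diaphragm than in hindlimb (0.82 ± 0.16 SE, adjusted p 0.0279). Pfkm is of the fast-fibre list. The ratios of Fmod (-0.92) and the liver gene Serpina1a (-1.42) were lower in diaphragm, both with an adjusted p of 0.0452. Both also passed for the table difference by tissue, Fmod at -1.30 and Serpina1a at -1.73, with an adjusted p of 0.0396; without the 3 arrays that stand apart these were -1.04 and -1.65, with an adjusted p of 0.0988. The 3 calls in mdx hindlimb passed without those arrays too.

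Members followed each other to differing degrees. Over the 45 pairs of members, Pearson's r across arrays had a median of 0.36 untreated (18 arrays), with 44 of 45 above 0, and of 0.10 treated (16 arrays), with 26 of 45 above 0. The untreated median was 0.39 without the 3 arrays that stand apart (15 arrays), with 43 of 45 above 0. Arrays share the reference label of their strain, and untreated ones share the few arrays that stand apart, so these are descriptions. Over all arrays Mylpf followed the members' mean most closely, with r = 0.85 untreated and 0.74 treated, and Pvalb had 0.71 and 0.74, while Tnni2 had 0.80 untreated and -0.21 treated; each gene is part of that mean. Without the 3 arrays that stand apart the untreated r was 0.68 for Mylpf, 0.67 for Pvalb and 0.72 for Tnni2, and Tpm1 had 0.83. The 5 other genes whose pattern was most like the members' mean, by the lower of both values of r, were Hadh, an enzyme of fatty acid oxidation (0.77 untreated, 0.70 treated), the N-terminal acetyltransferase Naa50 (0.69, 0.74), the slow tropomyosin Tpm3 (0.63, 0.77), the mitochondrial phosphate carrier Slc25a3 (0.76, 0.63) and the glycolytic enzyme Gapdh (0.63, 0.63). Without those 3 arrays their untreated r ran from 0.33 for Naa50 to 0.59 for Gapdh.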

How the data were processed

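The authors deposited 2 tables, 1 of 18 untreated and 1 of 16 L-arginine arrays, with 1200 probes each; 812 probes per table had 1 gene symbol in the platform annotation. The deposited values carry no stated unit, scale, centring or direction. They were read, from the values, as linear ratios of channel 2 over channel 1, under the unit other. Not given in the sources used here: the scanner, the background correction, any normalisation and the dyes. Only channel labels and values were used; 0 further columns per sample were left out.

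Log2 was taken of positive ratios, and a value of 0 or below was missing. Probes measured on 75% or more of a table's arrays were kept and averaged per gene. Tests used limma 3.58.1 (lmFit, eBayes, R 4.3.3) with group and age as terms and Benjamini-Hochberg adjustment over 1014 untreated or 1019 L-arginine features (named genes and unnamed probes), or over the 632 genes tested in both tables; 24 comparisons were fitted. The scripts were tested on simulated data. Motif searches and figures used Python 3.11.15 and matplotlib 3.10.9. The members, the lists and the tests were chosen with earlier results of these data known. Named genes are all members, the 5 most alike genes and called members of the comparison lists, up to 4 per list and comparison. The lists cover slow-fibre, developmental, other fast-fibre and shared sarcomere genes, and fibroblast and matrix, macrophage, adipocyte, liver, blood and endothelial markers. Alternatives changed the scaling, print-order trend, floor, filter, probe summary, age term, variance moderation and the arrays used.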

Additional observations from a re-analysis of the deposited data

Results flagged for a closer look

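In groups of 4 or 5 arrays, 7 of 79 sets of member values had 1 array far from the rest by Dixon's 95% criterion. In untreated muscle these were Myh1 on the BL10 diaphragm array of 5 weeks (-0.58) and on Sample 2 of mdx hindlimb (0.72), Myoz1 on the mdx diaphragm array of 5 weeks (-0.66) and on Sample 1 of mdx hindlimb (-0.66), and Tnnt3 on the BL10 hindlimb array of 3 weeks (-3.15). In treated muscle they were Myh4 on the mdx diaphragm array of 3 weeks (0.084) and Myoz1 on the BL10 hindlimb array of 12 weeks (-0.10).

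The members were searched in 8 pairs of groups, tissues within a strain and strains within a tissue, for a split in which every array of 1 group lay above 0 and every array of the other below. Of 80 searches 3 found one, or 3.75%, against 54 of 4997 (1.08%) over all named genes. All 3 lay in the L-arginine table. In mdx mice, diaphragm against hindlimb, 2 of 10 members and 2.23% of 628 genes had it, and in diaphragm, mdx against BL10, 1 of 10 and 0.633% of 632. Pvalb was above 0 on 4 of 4 treated mdx hindlimb arrays and below 0 on 4 of 4 treated mdx diaphragm arrays, a difference of -1.06 (diaphragm minus hindlimb). Tpm2 had the same split, with a difference of -0.55. Tnni2 was above 0 on 4 of 4 treated BL10 diaphragm arrays and below 0 on 4 of 4 treated mdx diaphragm arrays, a difference of -0.17 (mdx minus BL10). The first 2 differences, within mdx mice alone, were not tested; that of Tnni2 had an adjusted p of 0.998 (limma).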

How the results depend on the processing

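The count of 0 members past the test held under all alternatives run for 21 of the 24 comparisons. For the table difference in BL10 hindlimb the count of 2 members called became 1 with arrays centred on their median, with quantile normalisation and with the print-order trend removed. With only probes valued on every array Mylpf stayed called, and Tnni2, which lacks a value on 1 array, was not tested, so the count was 1. The count became 0 with arrays scaled to equal spread, without the 12-week arrays and without the 3 arrays that stand apart (an alternative chosen after seeing the data). It ran from 0 to 2 when 1 array was left out. Age by strain in untreated muscle had 1 with values of 0 or below set to the array's floor. With 1 array left out the counts for age by strain and for age by tissue also moved. They moved in fits where 1 array stood for a strain or a tissue at 3 weeks. The share of all features called under these alternatives is not given here, so the counts have no background. Tnni2 at 3 against 12 weeks untreated turned from 0.87 to -0.56 with values at the floor, which gives it a low value on the BL10 hindlimb array where it had none. Over the comparisons the median difference of all features ran from -0.24 to 0.24 as reported, and from -0.06 to 0.11 with arrays centred. In the BL10 hindlimb table difference quantile normalisation moved the members' median from 0.54 to 0.02. Arrays of the groups are matched by age, which is a term in every fit as reported; without it 2 members were still called in that comparison. Whether the members changed in single groups at single ages cannot be read, since each holds 1 array apart from Sample 1 and Sample 2.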
